A study of Homo sapiens with 9 samples.

Results

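The aldo-keto and carbonyl reductases described here are 9 genes whose enzymes use NADPH to turn aldehydes and ketones into alcohols. They were taken by symbol from the raw count table, through its Ensembl identifiers, and make up 9 of the 63187 genes listed there. The set holds AKR1A1, AKR1B1, AKR1B10, AKR1C1, AKR1C2, AKR1C3 and AKR7A2 of the aldo-keto reductase superfamily, and CBR1 and CBR3 of the short-chain dehydrogenases. Messenger RNA was sequenced in BEAS-2B cells, an immortalized line from human bronchial epithelium grown in medium with fetal bovine serum. Control cells were left untreated, PG/VG cells received condensed aerosol of a carrier made of propylene glycol and vegetable glycerine, and EC cells received condensed aerosol of an e-cigarette liquid with 18 mg/mL nicotine and Virginia tobacco flavor. Both condensates were applied at 2% (v/v) for 24 h. Each condition had 3 libraries, 1 from each of batches 2, 3 and 4, so 9 libraries of a single cell line were compared, and nicotine, flavor and the other components of the EC liquid were never applied separately.

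Aldo-keto reductases fold as a barrel with a bound NADPH, whereas CBR1 and CBR3 share the fold of the short-chain dehydrogenases, and both families detoxify reactive carbonyls such as those formed when lipids are oxidized. Several members also act on hormones and other signaling molecules: the AKR1C enzymes reduce steroids and prostaglandins, and AKR1B10 reduces retinal and lipid-derived aldehydes. AKR1B10 and AKR1C genes are known as targets of the transcription factor NRF2, which binds the antioxidant response element, and are high in the airways of smokers.

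The AKR1C genes lie side by side on chromosome 10 and resemble each other closely, which bears on how their reads were counted. In GRCh38 coordinates of GENCODE 44, AKR1C1 (ENSG00000187134) spans chr10:4963253-4983283, AKR1C2 (ENSG00000151632) spans chr10:4987775-5018031 on the opposite strand, and AKR1C3 (ENSG00000196139) spans chr10:5035354-5107686. The coding sequences of AKR1C1 and AKR1C2 differed at 19 of 969 bases (98.0% identity), with a longest identical run of 186 bases. AKR1C3 differed from AKR1C1 at 83 of 969 bases (91.4% identity). Coding bases 103 to 162 of the canonical transcripts, where differences are dense, show what tells these messages apart. Capitals in AKR1C1 mark the 10 positions at which AKR1C2 differs, and capitals in AKR1C2 and AKR1C3 mark bases that differ from AKR1C1 (10 and 7).
AKR1C1: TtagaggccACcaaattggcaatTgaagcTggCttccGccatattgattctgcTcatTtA
AKR1C2: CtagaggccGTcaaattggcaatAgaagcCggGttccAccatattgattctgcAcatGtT
AKR1C3: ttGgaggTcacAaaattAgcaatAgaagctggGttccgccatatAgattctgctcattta
Reads that mapped to several places or overlapped several genes were left out of the counts. Of all windows of 150 bases, the length of 1 read, in the canonical transcripts, 92.1% of those of AKR1C1, 82.8% of AKR1C2 and 97.9% of AKR1C3 occurred in no transcript of another gene. AKR1A1, AKR1B1, AKR1B10 and AKR7A2 reached 100%. CBR1 shared windows with CBR1-AS1 and ENSG00000289001 (78.1% unique), and CBR3 with the antisense gene CBR3-AS1 (51.0% unique).

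**Figure D1:**
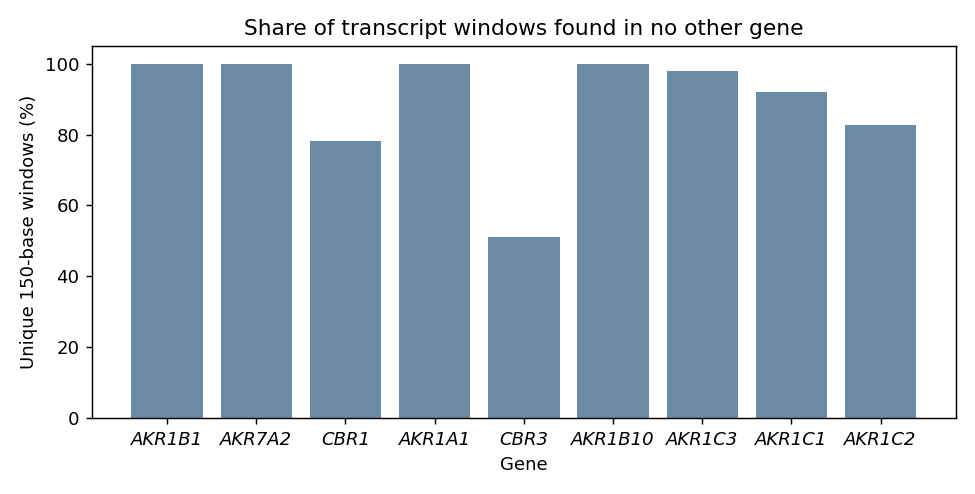
Percentage of the 150-base windows of each canonical transcript that occur in no transcript of another gene (vertical axis, %), for the 9 reductase genes (horizontal axis). CBR3 is lowest at 51.0%, and AKR1C2 stands at 82.8%.

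The strand setting of the counting was not given in the sources used here. Exons of CBR3-AS1 cover 71.1% of the exonic bases of CBR3, and other genes cover 18.9% of those of CBR1, most of it on the same strand (15.6% of its exonic bases). Without strand, reads of CBR3 and CBR3-AS1 cannot be told apart, and reads from the same-strand stretch of CBR1 cannot be assigned with strand either. CBR3-AS1 itself held 27 to 45 counts per library, and CBR1-AS1 held 0 to 4.

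The upstream regions of 4 members are shown because these genes differed in the measurements that follow: AKR1C3 rose in EC cells, AKR1C1 stayed near 0, AKR7A2 was abundant with a fold change near 0, and CBR1 had its lowest value in PG/VG cells. RefSeq start sites on GRCh38.p14 gave the 250 bases before the start for 7 of the 9 members; AKR1B10 and CBR3 were not matched. Capitals mark the core of the antioxidant response element (TGACNNNGC or its reverse complement GCNNNGTCA), the core of the aryl hydrocarbon receptor element (GCGTG or CACGC) and the CCAAT box (CCAAT or ATTGG), each searched on both strands. The regions are chr10:4963165-4963414 (plus strand), chr10:5094164-5094413 (plus strand), chr1:19312145-19312394 (minus strand) and chr21:36069774-36070023 (plus strand).
AKR1C1: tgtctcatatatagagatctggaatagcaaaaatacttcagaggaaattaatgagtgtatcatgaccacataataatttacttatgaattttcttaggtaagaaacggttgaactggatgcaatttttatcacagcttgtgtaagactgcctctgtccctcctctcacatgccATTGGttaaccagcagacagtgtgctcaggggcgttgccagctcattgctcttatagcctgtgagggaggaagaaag
AKR1C3: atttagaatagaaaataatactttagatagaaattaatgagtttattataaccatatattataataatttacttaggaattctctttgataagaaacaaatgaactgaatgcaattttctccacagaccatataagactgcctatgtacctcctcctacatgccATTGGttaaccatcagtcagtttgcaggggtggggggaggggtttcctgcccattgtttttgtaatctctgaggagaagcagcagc
AKR7A2: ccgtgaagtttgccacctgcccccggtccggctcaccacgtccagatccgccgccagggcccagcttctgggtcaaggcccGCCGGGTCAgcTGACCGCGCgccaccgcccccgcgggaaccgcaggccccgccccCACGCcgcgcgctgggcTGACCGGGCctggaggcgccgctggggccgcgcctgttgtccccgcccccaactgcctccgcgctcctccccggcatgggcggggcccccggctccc
CBR1: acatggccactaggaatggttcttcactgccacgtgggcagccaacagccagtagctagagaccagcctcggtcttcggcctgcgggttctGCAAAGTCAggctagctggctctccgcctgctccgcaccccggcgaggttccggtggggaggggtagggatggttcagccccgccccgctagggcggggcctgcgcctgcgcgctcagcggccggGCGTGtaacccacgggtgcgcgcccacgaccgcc
AKR7A2 held 3 matches to the antioxidant core and 1 to the aryl hydrocarbon receptor core, and CBR1 held 1 of each. AKR1B1 held 1 aryl hydrocarbon receptor core and 1 CCAAT box, AKR1A1 held none of the 3 motifs, and AKR1C1, AKR1C2 and AKR1C3 each held a single CCAAT box. Among 35116 human regions of the same length, 10.9% held the antioxidant core, 32.2% the aryl hydrocarbon receptor core and 32.0% the CCAAT box. The windows of AKR1C1 and AKR1C2 aligned with 245 identical bases of 246 aligned (99.6%), and those of AKR1C1 and AKR1C3 with 186 of 234 (79.5%). The alignment of AKR1C1 with CBR1, a gene of the other family, gave 136 of 189 (72.0%). No match here says only that these letters are absent from this window.

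Library totals ranged from 16168260 to 24917838 assigned counts. No replicate pair agreed within sampling noise, with chi-square values of 3.66 to 52.8 per gene. Batch 4 stood apart from batches 2 and 3 along the first principal component, which carried 46.6% of the variance of log2 CPM (counts relative to the library total after TMM scaling). The epithelial keratins KRT7, KRT8 and KRT18 and the mesenchymal genes VIM, FN1 and CDH2 were at 133 to 1403 TPM (counts divided by merged exon length and scaled to the same total in each library) throughout, whereas EPCAM lay at 1.2 to 3.72 TPM and CDH1 at 0.120 to 1.15 TPM. The airway basal markers KRT5 and TP63 and the leukocyte marker PTPRC were at or near 0 (at most 0.184 TPM). The epithelial keratin KRT19 lay below KRT7, KRT8 and KRT18 and above EPCAM and CDH1 in every library. The epithelial markers were thus split, with KRT7, KRT8 and KRT18 high and EPCAM and CDH1 low, and the mesenchymal genes were high as well. These markers alone do not settle whether the cells match the label of an epithelial line. The defining markers of airway basal cells had at most 5 counts in a library.

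BEAS-2B cells expressed the 9 genes at levels that ranged from abundant to undetected. Levels between genes were compared per length, in TPM. AKR1B1 (ENSG00000085662, chr7:134442356-134459284), the aldose reductase that reduces glucose to sorbitol, was the most abundant at 289 ± 3.47 TPM in control cells (SD, n = 3). It held 47.2% to 51.4% of the summed TPM of the 9 genes in every library. AKR7A2 (ENSG00000053371, chr1:19303965-19312144), which reduces succinic semialdehyde and aflatoxin dialdehyde, followed at 128 ± 7.75 TPM. CBR1 (ENSG00000159228, chr21:36069941-36073166), the main cytosolic carbonyl reductase of quinones and prostaglandins, was at 73.8 ± 4.61 TPM. AKR1A1 (ENSG00000117448, chr1:45550543-45570049), the aldehyde reductase, was at 62.0 ± 2.48 TPM. CBR3 (ENSG00000159231, chr21:36135079-36146562), a paralog of CBR1, was at 25.1 ± 2.58 TPM. Because reads that overlapped several genes were dropped, the level of CBR3 depends on the strand setting. Dividing all counts of a gene by only the exon bases that no other gene covers gave 87.2 ± 8.93 TPM for CBR3 in control cells. The same rescaling gave 91.1 ± 5.68 TPM for CBR1 (SD, n = 3). It holds only if no counted read came from the covered bases, which is not known.

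The other 4 genes were low. AKR1B10 (ENSG00000198074, chr7:134527567-134541412) was at 2.66 ± 1.99 TPM in control cells, AKR1C3 at 0.654 ± 0.294 TPM and AKR1C1 at 0.137 ± 0.0524 TPM, and AKR1C2 had no count. These 4 genes together held 0.307% to 2.72% of the summed TPM. The order from AKR1B1 to AKR1C2 over full exon lengths was the same in 9 of 9 libraries. This order rests on the merged exon length, which was 3121 bases for AKR1A1, 2450 for CBR1 and 3911 for AKR1C3. Their canonical transcripts have 1407, 1208 and 1186 bases, and the order over those lengths was not computed. The place of CBR3 also rests on which exon bases are counted. With the counts of CBR1 and CBR3 divided by uncovered bases only, CBR3 was above AKR1A1 in 9 of 9 libraries and above CBR1 in 2. Within each condition, over full exon lengths, the ranges of neighboring genes did not overlap, except for AKR1C1 and AKR1C2 in PG/VG cells (lowest AKR1C1 value 0.0630 TPM, highest AKR1C2 value 0.0660 TPM). The summed TPM of the 9 genes was 574 to 589 in control libraries, 563 to 588 in PG/VG libraries and 591 to 673 in EC libraries. The EC value closest to the controls, 591, came from batch 4.

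**Figure D2:**
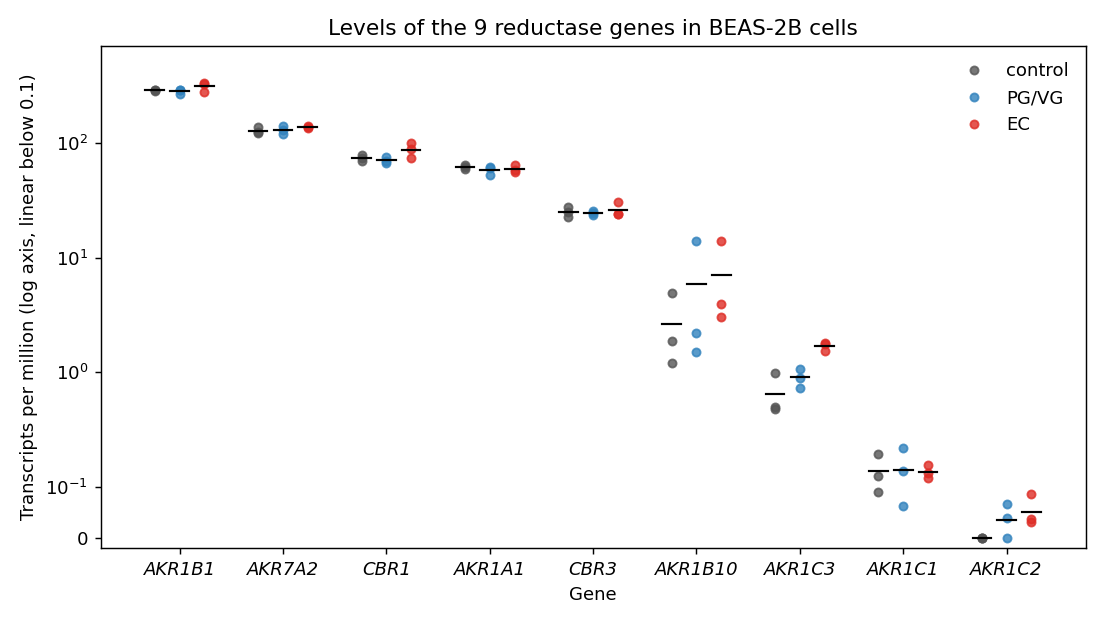
Level of each reductase gene (horizontal axis) in TPM (vertical axis, logarithmic and linear below 0.1), with a point for each of 3 libraries per condition and a bar for the mean. AKR1B1 lies near 289 TPM and AKR1C2 at or near 0, and AKR1C3 is the low gene whose 3 EC points all lie above the other points.

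In EC cells, the members of this set that were called higher were low ones: AKR1B10 and AKR1C3 each went up about 2.5-fold over control. The abundant AKR1B1, AKR7A2, CBR1 and AKR1A1 did not pass the test. The question was which genes of carbonyl reduction differed between treated and untreated cells after 24 h. Of the 9 genes, 7 had at least 10 counts in at least 3 libraries and were tested. In the EC vs. control comparison, 2 of these 7 passed an adjusted p threshold of 0.05, both higher and 0 lower, against 13.5% of the 16030 genes tested (8.07% higher and 5.38% lower). The median log2 fold change of the 7 was 0.039, beside 0.0078 over all genes tested, and 5 of the 7 were positive. AKR1C1 (3 to 8 counts per library) and AKR1C2 (0 to 3) were not tested. In bulk RNA, a change in the number of cells that express a gene and a change in the amount per cell cannot be told apart.

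**Figure D3:**
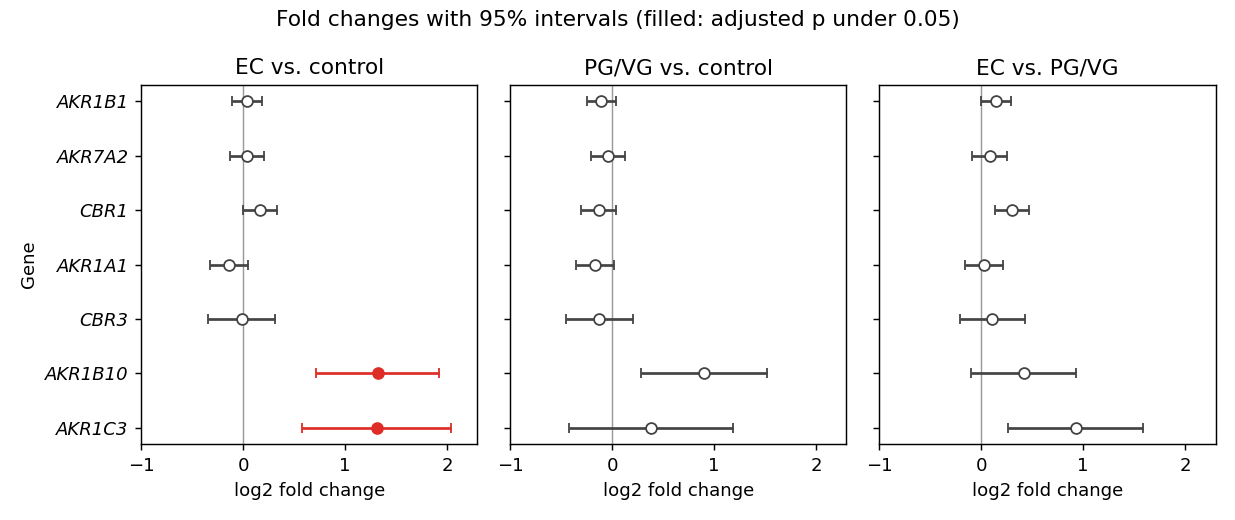
Log2 fold change (horizontal axis) with its 95% interval for the 7 tested genes (vertical axis, ordered by level) in the 3 comparisons; filled points passed an adjusted p of 0.05. Only AKR1B10 (1.32) and AKR1C3 (1.31) in EC vs. control are filled, and the intervals of the abundant genes are narrow.

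AKR1B10, an enzyme first found in liver cancer that reduces retinal and aldehydes of lipid oxidation, was measured by few reads. Its counts in batches 2, 3 and 4 were 12, 8 and 36 in control cells, 21, 11 and 124 in PG/VG cells, and 40, 28 and 108 in EC cells. As CPM, these were 0.762, 0.495 and 2.03 in control, 0.860, 0.602 and 5.32 in PG/VG, and 1.59, 1.19 and 5.36 in EC cells. The conditions overlapped across batches, since batch 4 was high in all of them, but within each batch the EC library was above its control. The EC minus control differences were 1.02, 1.2 and 1.39 on the log2 CPM scale. AKR1B10 rose 2.5-fold in EC cells (log2 fold change 1.32, SE 0.29, 95% interval 0.72 to 1.93, edgeR quasi-likelihood test with Benjamini-Hochberg adjusted p = 0.00413).

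The same gene was high in every batch 4 library. Averaged over the conditions, AKR1B10 was 4.69-fold higher in batch 4 (log2 fold change 2.23, SE 0.22, edgeR quasi-likelihood adjusted p = 1.76e-08). Batch accounted for 78.2% of the variance of its log2 CPM and condition for 17.6%. Without the 3 libraries of batch 4, its EC vs. control fold change was 1.13 (log2) with an adjusted p of 0.0977 by edgeR's quasi-likelihood test, and without the batch 4 control library alone it was 0.95 (adjusted p = 0.127). In that comparison of batches, 3 of the 7 tested genes passed the threshold, 1 higher and 2 lower, against 40.6% of all genes (20.1% higher and 20.5% lower). CBR1 was lower in batch 4 (log2 fold change -0.24, SE 0.071, edgeR adjusted p = 0.00981), as was AKR1B1 (-0.17, SE 0.061, adjusted p = 0.0267). What differed between the batches is not given in the labels.

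AKR1C3, which converts prostaglandin D2 and weak androgens, also rested on few reads. It was counted 7, 7 and 16 times in control cells of batches 2, 3 and 4, 19, 12 and 21 times in PG/VG cells, and 40, 36 and 26 times in EC cells. The CPM values were 0.445, 0.433 and 0.901 in control, 0.778, 0.656 and 0.901 in PG/VG, and 1.59, 1.53 and 1.29 in EC cells. Every EC library was above every control and every PG/VG library, a separation seen in 17.3% and 7.91% of all tested genes. AKR1C3 rose 2.48-fold in EC cells over control (log2 fold change 1.31, SE 0.35, 95% interval 0.58 to 2.04, edgeR quasi-likelihood adjusted p = 0.0160). The difference was smaller in batch 4 (0.50 on the log2 CPM scale) than in batches 2 and 3 (1.75 and 1.74), with 1 library per condition in each batch and no test between them. Condition accounted for 78.0% of the variance of its log2 CPM, and batch for 7.14%.

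The call for AKR1C3 depended on single libraries. Its adjusted p was above 0.05 without the control library of batch 2 (0.1003) or batch 3 (0.0923), or without the EC library of batch 2 (0.0670) or batch 3 (0.0848), with log2 fold changes of 1.11 to 1.74 over the 9 refits that each left out a library. Without batch 4, it was 1.80 (log2) with an edgeR quasi-likelihood adjusted p of 0.0192. Depth moved with condition, since the 3 control libraries held 16168260 to 17882770 counts and the 6 treated ones 18427225 to 24917838. With all libraries thinned to the smallest total, the fold changes were 1.26 for AKR1C3 (adjusted p = 0.0262) and 1.48 for AKR1B10 (adjusted p = 0.00209, both log2 by the same edgeR test).

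**Figure D4:**
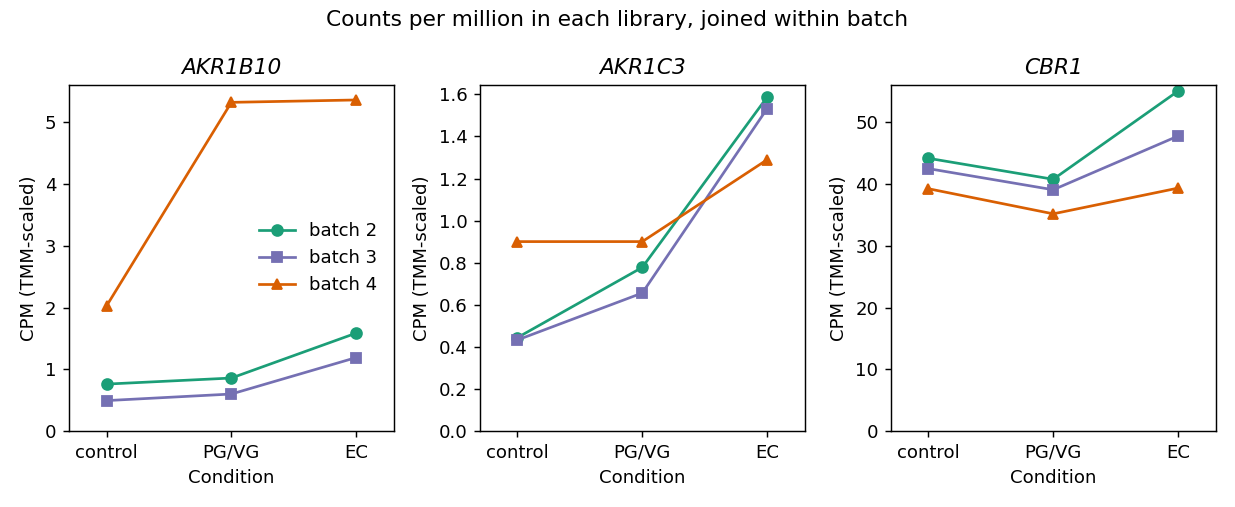
CPM (vertical axes, TMM-scaled) of AKR1B10, AKR1C3 and CBR1 in each of the 9 libraries by condition (horizontal axes), with lines joining the libraries of 1 batch. AKR1B10 is at 5.32 and 5.36 CPM in the PG/VG and EC libraries of batch 4, AKR1C3 is highest in EC in every batch, and CBR1 is lowest in PG/VG in every batch.

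The close paralogs AKR1C1 and AKR1C2, hydroxysteroid dehydrogenases that inactivate progesterone and dihydrotestosterone, stayed at the limit of detection in all conditions. AKR1C1 was counted 4, 3 and 7 times in control cells of batches 2, 3 and 4, 3, 8 and 6 times in PG/VG cells, and 6 times in each EC library. Its level was 0.137 ± 0.0524 TPM in control, 0.140 ± 0.0781 in PG/VG and 0.137 ± 0.0189 in EC cells (SD, n = 3). AKR1C2 had 0 counts in the 3 control libraries, 0, 1 and 2 in PG/VG, and 3, 1 and 1 in EC libraries. A count of 0 allows up to 3 counts, so no fold change is given, although the EC and control counts of AKR1C2 did not overlap. Such limits cover counting error only. The summed TPM of the 3 AKR1C genes was 0.565 to 1.19 in control, 0.958 to 1.28 in PG/VG and 1.72 to 2.00 in EC libraries, and most of it was AKR1C3.

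The abundant reductases moved little in EC cells. AKR1B1 gave 245, 248 and 241 CPM in control cells of batches 2, 3 and 4, and 277, 261 and 220 CPM in EC cells, with overlapping ranges (log2 fold change 0.038, SE 0.070, edgeR adjusted p = 0.776). AKR1A1 was at 44.7, 43.4 and 46.7 CPM in control and 45.2, 38.3 and 38.8 CPM in EC cells (log2 fold change -0.14, SE 0.089, edgeR adjusted p = 0.334). AKR7A2 was at 49.8, 52.1 and 56.3 CPM in control and 55.5, 52.9 and 54.0 CPM in EC cells (log2 fold change 0.039, SE 0.082, edgeR adjusted p = 0.808). For these 3 genes and CBR1, the 95% intervals of the EC vs. control log2 fold changes lay between -0.32 and 0.34. CBR3 had a wider interval than each of these genes taken singly, at -0.34 to 0.31 around an estimate of -0.015 (edgeR adjusted p = 0.964), with 85 to 175 counts per library.

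PG/VG cells showed no called change among the reductases. Of the 7 tested, 0 passed the threshold by edgeR's quasi-likelihood test, against 4.54% of all genes tested (2.63% higher, 1.90% lower), and 1 of the 7 had an unadjusted p under 0.05. DESeq2 with the batch term, which gave AKR1B10 and AKR1C3 no adjusted p, also called 0, as did DESeq2 after ComBat-Seq. The median log2 fold change of the 7 was -0.11, beside 0.013 over all genes. The gene with the low unadjusted p was AKR1B10, at 1.87-fold over control (log2 fold change 0.90, SE 0.30, 95% interval 0.28 to 1.52, edgeR adjusted p = 0.0840). Its PG/VG minus control difference was 0.15 and 0.26 in batches 2 and 3 and 1.38 in batch 4 on the log2 CPM scale, so the estimate came mainly from 1 library with 124 counts. Without batch 4 it was 0.20 (log2, edgeR adjusted p = 0.850).

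The remaining PG/VG estimates were small or imprecise. AKR1C3 gave a log2 fold change of 0.38 with a 95% interval of -0.42 to 1.19. AKR1A1 was at 36.3, 42.6 and 41.3 CPM in PG/VG cells, each below the lowest control value of 43.4, yet did not pass (log2 fold change -0.17, SE 0.089, edgeR adjusted p = 0.303). AKR1B1 was likewise at 235.9, 241.2 and 207.4 CPM, below the lowest control of 241.5 (log2 fold change -0.11, SE 0.070, edgeR adjusted p = 0.418). These 2 of the 9 genes had groups that did not overlap, against 14.2% of all tested genes. Both condensates were compared with the same control libraries.

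The EC vs. PG/VG comparison sets the liquid with nicotine and flavor against a liquid of carrier only. The study does not give the carrier ratio of the EC liquid. This comparison also called 0 of the 7 by edgeR's quasi-likelihood test, against 0.855% of all genes. The 7 estimates were all positive in this fit, although AKR1A1 was below 0 without the batch 2 library of either group and with thinned counts, and CBR3 without the batch 2 library of EC, with a median log2 fold change of 0.15 beside 0.0024 over all genes, and 3 genes had an unadjusted p under 0.05 (AKR1B1, AKR1C3 and CBR1). DESeq2 with the batch term, which gave AKR1C3 no adjusted p, called 0. DESeq2 after ComBat-Seq, the steps that the study describes for its own tests, called 1, CBR1 (adjusted p = 0.00579). That setting called 621 of 16100 genes tested, against 137 of 16030 in the main fit. AKR1C3 was 1.90-fold higher in EC than in PG/VG cells (log2 fold change 0.93, SE 0.32, 95% interval 0.26 to 1.59) with an edgeR adjusted p of 0.188. AKR1B10 differed by 0.42 (95% interval -0.099 to 0.94, edgeR adjusted p = 0.513), and its EC minus PG/VG difference in log2 CPM was 0.87 and 0.95 in batches 2 and 3 but 0.011 in batch 4.

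CBR1 was the reductase with the lowest p in this comparison. Its CPM in batches 2, 3 and 4 were 44.2, 42.5 and 39.2 in control, 40.8, 39.1 and 35.2 in PG/VG, and 55.0, 47.8 and 39.3 in EC cells. In each batch the PG/VG library was the lowest and the EC library the highest, although in batch 4 EC and control differed by only 0.0035 on the log2 CPM scale. CBR1 was 1.23-fold higher in EC than in PG/VG cells (log2 fold change 0.30, SE 0.080, 95% interval 0.13 to 0.47, unadjusted p = 0.00113), and edgeR's adjusted p was 0.0806. Against control, its log2 fold change was 0.17 in EC (SE 0.081, edgeR adjusted p = 0.185) and -0.13 in PG/VG cells (SE 0.082, edgeR adjusted p = 0.386). AKR1B1 was 1.11-fold higher in EC than PG/VG cells (log2 fold change 0.15, SE 0.070, edgeR adjusted p = 0.383).

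The genes whose pattern over the 9 libraries most resembled that of a member were ranked by the Pearson correlation of log2 CPM, taken as the deviation from the batch mean. For AKR1B10 these were C5orf15 (r = 0.989), TMEM260 (0.987) and CD83 (0.982), and for CBR1 they were HPCAL1 (0.973), LPXN (0.972) and ARMC7 (0.966), among about 10870 genes with a mean of at least 5 CPM. The 9 points share their batch means and 3 conditions. AKR1C1 was too low to be ranked.

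Some other members of the superfamily and some genes that handle carbonyls were called in EC cells. Over all genes tested, 8.07% were called higher and 5.38% lower in EC vs. control. Of 6 tested among 10 other aldo-keto reductase genes, 1 rose and 0 fell in EC vs. control (median log2 fold change -0.060). It was KCNAB2, a beta subunit of voltage-gated potassium channels that keeps the aldo-keto reductase fold, with a log2 fold change of 1.07 (SE 0.12, edgeR adjusted p = 5.84e-06) and 0.70 against PG/VG cells (SE 0.11, edgeR adjusted p = 0.00203). Of 25 tested short-chain dehydrogenases that act on carbonyls or retinal, 5 rose and 0 fell in EC cells (median 0.096), and 2 rose in PG/VG cells, against 2.63% of all genes. The retinal reductase DHRS3 was at 0.53 (SE 0.096, edgeR adjusted p = 0.000717) in EC and 0.68 (adjusted p = 0.000268) in PG/VG cells. The retinol dehydrogenase RDH10 was at 0.56 (SE 0.11, edgeR adjusted p = 0.00174) in EC and 0.40 (adjusted p = 0.0424) in PG/VG cells, and DHRS7 rose by 0.37 in EC cells (adjusted p = 0.00556), all on the log2 scale.

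Among 12 genes for other routes of carbonyl handling, such as the glyoxalases and zeta-crystallin-like quinone reductases, 1 rose and 1 fell in EC cells (median 0.026). TP53I3, a quinone oxidoreductase induced by p53, rose (log2 fold change 0.56, SE 0.078, edgeR adjusted p = 5.87e-05) and was also called higher in PG/VG cells (0.31, adjusted p = 0.0231), and CRYZL1 fell by 0.39 (SE 0.094, edgeR adjusted p = 0.00726). Of 8 genes listed for the supply of NADPH, the cofactor of these reductases, 3 rose and 0 fell in EC cells (median 0.19). By edgeR, 0 were called in either other comparison. The 3 were IDH1 (log2 fold change 0.53, edgeR adjusted p = 9.26e-05), TKT (0.28, adjusted p = 0.00711) and PGD (0.22, adjusted p = 0.0307). PGD was called in 3 of the 9 refits that each left out a library. Some of the list, such as TKT, act in the pentose phosphate pathway without making NADPH themselves. Over all genes tested, 8.07% were called higher and 5.38% lower in EC vs. control.

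Targets of NRF2 other than the 9 members rose in 6 of 14 tested cases and fell in 0 in EC cells. Their median log2 fold change was 0.32, and 8.07% of all genes were called higher and 5.38% lower. PIR rose by 1.16 (SE 0.12, edgeR adjusted p = 2.06e-06), OSGIN1 by 0.88 (adjusted p = 0.000199) and FTL, the ferritin light chain, by 0.61 (adjusted p = 3.14e-05). In PG/VG cells 1 of the 14 rose, PIR (log2 fold change 0.55, edgeR adjusted p = 0.0129), against 2.63% of all genes. The 6 genes that regulate NRF2 or pair with it were called in 0 cases in the 3 comparisons by edgeR. Of 5 targets of the aryl hydrocarbon receptor, 4 rose in EC cells (median 1.71), among them CYP1A1 (log2 fold change 2.65, SE 0.24, edgeR adjusted p = 2.06e-06), CYP1B1 (1.95, adjusted p = 3.17e-09) and the aldehyde dehydrogenase ALDH3A1 (1.71, adjusted p = 0.000423). In PG/VG cells only CYP1B1 of the 5 rose (0.39, edgeR adjusted p = 0.0236). Against PG/VG cells, 4 of the 5 aryl hydrocarbon receptor targets and 5 of the 14 NRF2 targets were higher in EC cells, against 0.555% of all genes tested. The lists were chosen with earlier results of these data known. The study had already reported CYP1A1, CYP1B1, TIPARP and ALDH3A1 as higher in EC cells than in control. These counts therefore describe the lists and are not independent evidence.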

How the data were processed

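BEAS-2B poly(A) RNA libraries of 3 conditions and 3 batches were analysed. Per the labels and the study's methods, the authors trimmed reads with fastp, aligned them to GRCh38.p12 with STAR and counted exons with featureCounts (Subread 2.0.4), ignoring multi-mapping and multi-overlapping reads; the deposited values are raw counts per gene, 16168260 to 24917838 per library. Replicate numbers are the batch in the labels. Deviations from the condition means correlated at 0.334 to 0.707 between libraries of the same batch (9 pairs) and at -0.539 to 0.426 otherwise (18 pairs), so batch was kept as a block. Nothing in the sources used here says more of how the batches were made, and p-values measure only the spread between these libraries.

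Counts of 63187 genes (62666 matched to GENCODE 44) were filtered to the 16030 that reached 10 counts in 3 or more libraries. One model with condition and batch was fitted in edgeR 4.0.16 (R 4.3.3) with TMM scaling, using the robust quasi-likelihood test with Benjamini-Hochberg adjustment over all 16030 genes and a threshold of 0.05, and was tested on simulated data. TPM were computed from merged exon lengths. For CBR1 and CBR3 they were also rescaled, after seeing the data, by dividing the same counts by the exon bases that no other gene covers. Alternatives were other scalings and filters, DESeq2 1.42.0, ComBat-Seq (sva 3.50.0), no block, each library left out, and, chosen after seeing the data, batch 4 left out and thinned counts. Promoter windows were aligned with Biopython. Named genes were the 9 members in every comparison, per list at most the 3 with the largest EC vs. control change among those called and moving the same way in 3 of 3 batches, and the 3 genes most correlated with AKR1B10 and CBR1. The members and lists were chosen with earlier results of these data known.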

Additional observations from a re-analysis of the deposited data

Results flagged for a closer look

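CBR1 went up over control in the EC library of each of the 3 batches and down in the PG/VG library of each. The difference between the treatments, tested directly as EC vs. PG/VG, was 0.30 on the log2 scale (SE 0.080) and missed the threshold after adjustment (edgeR quasi-likelihood adjusted p = 0.0806). Both treatments were set against the same control libraries, and the EC minus control difference in batch 4 was 0.0035. Across alternatives other than leaving out a library, the estimate was 0.27 to 0.37, with adjusted p of 0.00579 to 0.9999, and 2 of 11 alternatives called it. The lowest adjusted p came from DESeq2 after ComBat-Seq, the steps that the study describes for its own tests.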

How the results depend on the processing

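AKR1B10 and AKR1C3 rest on 7 to 124 counts per library, and that depth limits them. The count of 2 reductases called in EC vs. control was 1 at an adjusted p threshold of 0.01 (AKR1B10), 1 without the batch 4 libraries (AKR1C3), 0 with no replicate block and 0 when at least 10 counts were required in every library, which leaves both genes untested. With no replicate block, 16 of 16030 genes passed in EC vs. control, against 2157 in the main fit. AKR1B10 then had a log2 fold change of 1.27 (SE 0.94, edgeR adjusted p = 0.675), where its SE was 0.29 in the main fit. AKR1C3 had 1.29 (SE 0.33, adjusted p = 0.189), close to its main fit (1.31, SE 0.35), with an unadjusted p of 0.0032 by the same edgeR test. Both calls were lost without the block, but only AKR1B10 became less precise. Leaving out 1 library at a time gave 1 to 2 called in EC vs. control, 0 in PG/VG vs. control, 0 in EC vs. PG/VG and 1 to 3 between batch 4 and batches 2 and 3, where the count of 1 came without the EC library of batch 4. The other scalings, no filter, DESeq2, ComBat-Seq, the 2 groups fitted alone and thinned counts each called 2 in EC vs. control. In PG/VG vs. control the count of 0 became 1 with counts thinned to the smallest library (AKR1B10, log2 fold change 1.08, edgeR adjusted p = 0.0490). In EC vs. PG/VG it became 1 with library size scaling only (CBR1, edgeR adjusted p = 0.0423) and 1 with ComBat-Seq and DESeq2 (CBR1, adjusted p = 0.00579). The causes were not tested. No called value of a reductase or of a named list gene changed sign under the alternatives run for it. Of the 15 list genes named for EC vs. control, 2 were called with no replicate block (CYP1A1 and CYP1B1), and 11 in every fit that left out a library. TKT was lost without the control library of batch 2 or 3, CRYZL1 without the control library of batch 2, DHRS7 without the EC library of batch 2, and PGD without any one control or EC library. In PG/VG vs. control, 1 of the 5 named calls (DHRS3) passed in every fit that left out a library; RDH10 and CYP1B1 passed in 3 of 9, TP53I3 in 5 and PIR in 7. In EC vs. PG/VG it was 4 of 7, with ALDH3A1 passing in 5 of 9 and PIR and OSGIN1 in 7. All counts of CBR1 and CBR3 were also divided by only the exon bases not covered by another gene, a rescaling chosen after seeing the data. It gave CBR1 91.1, 87.2 and 108 TPM in control, PG/VG and EC cells, and CBR3 87.2, 84.3 and 90.7 TPM. The comparison of batches cannot be made with no replicate block.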
